A study of Homo sapiens with 3 samples.

Results

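The transcriptome described here is that of untreated HCT116 cells, taken from 1 of the 3 RNA-seq libraries of the study. HCT116 is an established human colon carcinoma cell line. The library was chosen by its label alone, which gives no drug and no transfection. The study's other 2 libraries, made after 24 hours with 1 µM palbociclib or with an siRNA against CDK4, are not described here, and entered only the factors of 2 alternative scalings of the untreated library. RNA came from 1 culture of 1 line. There is thus no replicate, no estimate of the spread between cultures and no test, and each value describes this library. Levels are given as reads, as CPM, which scales the reads to a common library size, or as FPKM, which also divides by gene length and is the unit used to set genes side by side. Ranges in brackets are 95% intervals and cover counting error only.

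Most mRNA of a growing cell comes from a small number of genes for translation, energy metabolism and the cytoskeleton. A cell type is set apart by a smaller group of lineage genes, and where a protein has several near relatives, each tissue tends to use some of them. HCT116 grows as an epithelial sheet and is known for an activating mutation of CTNNB1, the gene of the Wnt effector beta-catenin.

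The library held 20313597 reads over 48162 table entries. At least 1 read was found for 20012 entries, and 28150 entries (58.4%) had none. A level of at least 1 FPKM, used below as the mark of an expressed gene, was reached by 11448 entries, or 23.8%. The reads were concentrated: 139 entries held 25% of them, 785 held 50% and 5285 held 90%. The 40 entries at 1000 FPKM or more took 12.9% of reads, while the 8564 entries with reads but under 1 FPKM took 0.498%. A gene without reads may be present at up to 3 counts, or 0.148 CPM.

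**Figure D1:**
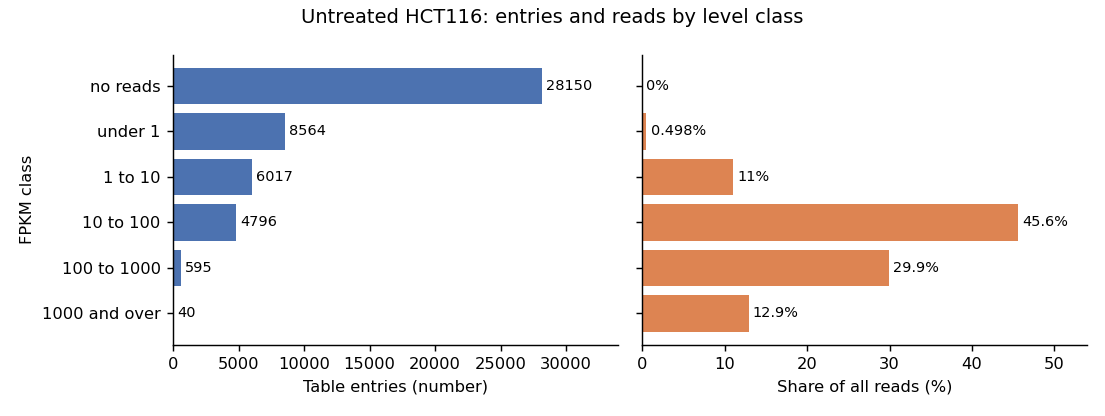
Number of table entries (left, linear axis) and share of all reads in percent (right, linear axis) in 6 classes of FPKM in the untreated HCT116 library. The class without reads holds 28150 entries, and the 4796 entries at 10 to 100 FPKM hold 45.6% of the reads.

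Protein-coding genes supplied nearly all reads. By gene type in GENCODE release 29, 18362 entries matched a protein-coding gene and took 95.8% of reads. Of these, 10011 (54.5%) reached 1 FPKM and 4671 (25.4%) had no reads, with a median of 1.84 FPKM. Of 2465 long non-coding RNA entries 119 reached 1 FPKM, and of 6009 pseudogene entries 243 did. A further 20888 entries, most of them transcripts named after clones, had no match by symbol and held 3.56% of reads. All 20521 clone-named symbols together had 71545 of the 20313597 reads, so most of that share came from other unmatched symbols. Of the unmatched entries 1068 reached 1 FPKM, and none of them enters the protein-coding shares.

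The most abundant messages belonged to respiration, translation, chaperones, the cytoskeleton and glycolysis. Of the 20 highest genes by FPKM with at least 100 reads, 9 were encoded by mitochondrial DNA, led by the cytochrome oxidase subunit genes MT-CO2 at 7421 FPKM and MT-CO1 at 7161 FPKM. Ribosomal protein genes gave 2, RPL8 at 3404 and RPS2 at 2500 FPKM. The elongation factor genes EEF1A1, which delivers aminoacyl-tRNA, and EEF2, which moves the ribosome along, were at 2207 and 1981 FPKM. The cytoplasmic HSP90 chaperone genes HSP90AB1 and HSP90AA1 were at 2212 and 1844 FPKM. The cytoplasmic actin genes ACTG1 and ACTB, the glycolytic gene ENO1, the ferritin light chain gene FTL and the actin-binding thymosin gene TMSB10 made up the rest, between 1713 and 2524 FPKM.

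Ranked by reads instead, long messages moved up. The 20 entries with the most reads held 5 mitochondrial and 3 ribosomal protein genes, and among the other 12 were FASN, the fatty acid synthase gene, with 84093 reads, and KRT8, a keratin gene, with 68430. FASN was 12th by reads and 91st by FPKM, at 484 FPKM. Of the 100 highest entries by reads and the 100 highest by FPKM, 69 were shared. Other genes named after their values were seen include HMGA1, a chromatin protein gene of growing cells, at 1142 FPKM (1132 to 1152), TRIM28, a co-repressor gene, at 774 (767 to 781), SLC7A5, an amino acid transporter gene, at 372 (368 to 376), and MYC at 242 (237 to 246).

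Some high values belong to copies that share sequence. The pseudogene RPS2P46 was listed at 1241 FPKM from 23269 reads, RPS2P5 at 381 FPKM and EEF1A1P5 at 90.2 FPKM, next to RPS2 and EEF1A1 themselves. How reads that match several copies were counted is not given in the sources used here, so these values and those of the parent genes are uncertain. The signal recognition particle RNA gene RN7SL1, also part of a repeated family, was at 1322 FPKM and the ribosomal RNA entry RNA28S5 at 238 FPKM.

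Many genes of the translation machinery are known to start transcription at a C followed by an unbroken run of pyrimidines, the terminal oligopyrimidine sequence through which their translation is controlled. RefSeq promoter windows (GRCh38.p14) that hold 250 bases before and 50 after the annotated start were matched to the table by symbol for 14949 genes, and the 11141 with 1 annotated start were used. A start was called a pyrimidine start where the first transcribed base was C and at least 5 bases of C or T ran unbroken from it on the gene's strand. The following genes are shown because they carry such a start and are among the abundant messages. Each line runs from 5 bases before the start to 20 bases from it, and the capitals mark the run of C and T that opens the transcript.
EEF1A1 (chr6:73521013-73521037, minus strand): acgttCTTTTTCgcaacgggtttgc
EEF2 (chr19:3985444-3985468, minus strand): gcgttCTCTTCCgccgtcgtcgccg
RPLP0 (chr12:120201092-120201116, minus strand): gaggcCCTTCTCTCgccaggcgtcc
RPS18 (chr6:33272070-33272094, plus strand): ccgctCTCTCTTCCacaggaggcct
RPS12 (chr6:132814564-132814588, plus strand): gaggcCTCTTTCCCTgccgccgccg
TPT1 (chr13:45341164-45341188, minus strand): tcggcCTTTTCCgcccgctcccccc

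The next lines give abundant genes without such a start, for the same window and with the same meaning of the capitals. ACTG1 opens with a run of 3, below the minimum, and the other genes have none.
ENO1 (chr1:8878667-8878691, minus strand): cggacagtatctgtgggtacccgga
PPIA (chr7:44796676-44796700, plus strand): gtgccgttttgcagacgccaccgcc
GAPDH (chr12:6535259-6535283, plus strand): tccctgtccggatgctgcgcctgcg
ACTG1 (chr17:81512780-81512804, minus strand): tcggtCTCagtcgccgctgccagct

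Pyrimidine starts were most frequent in the highest class. They were present at 69 of 349 promoters (19.8%) of genes at 100 FPKM or more, against 5.91% at 10 to 100 FPKM, 3.97% at 1 to 10, 3.25% under 1 and 2.85% of genes without reads. Over all 11141 promoters the share was 4.46%, and 4.07% of all 35116 RefSeq windows had one. Ribosomal protein genes held much of this: 41 of 56 (73.2%) had the start, and without them the highest class stood at 33 of 303 (10.9%). A match describes the letters at an annotated start, which may differ from the start used in these cells.

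The TATAAA box was most frequent at both ends of the scale. It was searched on the gene's strand between 40 and 16 bases before the start and was found at 7.96% of promoters of genes without reads, 4.97% under 1 FPKM, 1.07% at 1 to 10, 1.43% at 10 to 100 and 6.02% at 100 or more. The share over all matched promoters was 4.08%. The 21 genes of the highest class with the box include EEF2, RPLP0, CALR, a chaperone gene of the endoplasmic reticulum at 771 FPKM, PPIA, ANXA2, the metallothionein gene MT2A, KITLG, the gene of the KIT receptor ligand at 178 FPKM, and ID1, an inhibitor of helix-loop-helix factors at 131 FPKM.

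The cells carried the marks of epithelium. All 4 defining markers were expressed: KRT8 at 1177 FPKM (1168 to 1186) and KRT18 at 150 FPKM, whose proteins pair into the keratin filaments of simple epithelia, EPCAM, a surface adhesion protein gene, at 158 FPKM, and CDH1, the E-cadherin gene, at 10.2 FPKM (9.56 to 10.8). Of 39 further epithelial genes 37 were expressed, with a median of 16.1 FPKM, against 54.5% and 1.84 FPKM over protein-coding entries. KRT19 led at 945 FPKM, followed by the membrane protease gene ST14 at 113 and the junction gene JUP at 103 FPKM. Factors that keep the epithelial programme were lower: the splicing regulators ESRP1 and ESRP2 were at 32.3 and 21.1 FPKM, ELF3 at 7.65 and GRHL2 at 5.62. KRT20, a marker of mature colon cells, was under 1 FPKM, at 0.623. The listed PATJ was not analysed here.

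Mesenchymal genes were largely low. Of 18 listed genes 5 were expressed, 9 had reads under 1 FPKM and 4 had none, and the median was 0.142 FPKM. Over protein-coding entries 54.5% were expressed and 25.4% had no reads, with a median of 1.84 FPKM, so the count without reads was near the background. VIM, the gene of vimentin, the intermediate filament of mesenchymal cells, had 9 reads and 0.166 FPKM (0.076 to 0.315). CDH2, the N-cadherin gene, had 2 reads, and the repressor genes ZEB1 and ZEB2 had 70 and 1. The highest members were S100A4, a calcium-binding protein gene linked to motility, at 110 FPKM, and SNAI1, the gene of the repressor Snail, at 9.43 FPKM. TWIST1 was at 1.71 FPKM, while its relative TWIST2 had no reads.

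Crypt genes were split. Of 18 genes of the intestinal stem cell and crypt list 13 were expressed, with a median of 4.42 FPKM, against 54.5% and 1.84 FPKM over protein-coding entries. CD44, a hyaluronan receptor gene, was at 58.7 FPKM, SOX9, a crypt transcription factor gene, at 51.5, MSI1 at 17.1 and the Wnt feedback gene RNF43 at 15.9. The 5 genes without reads were LGR5, ASCL2, OLFM4, SMOC2 and HOPX, among them the best known markers of the crypt base stem cell.

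**Figure D2:**
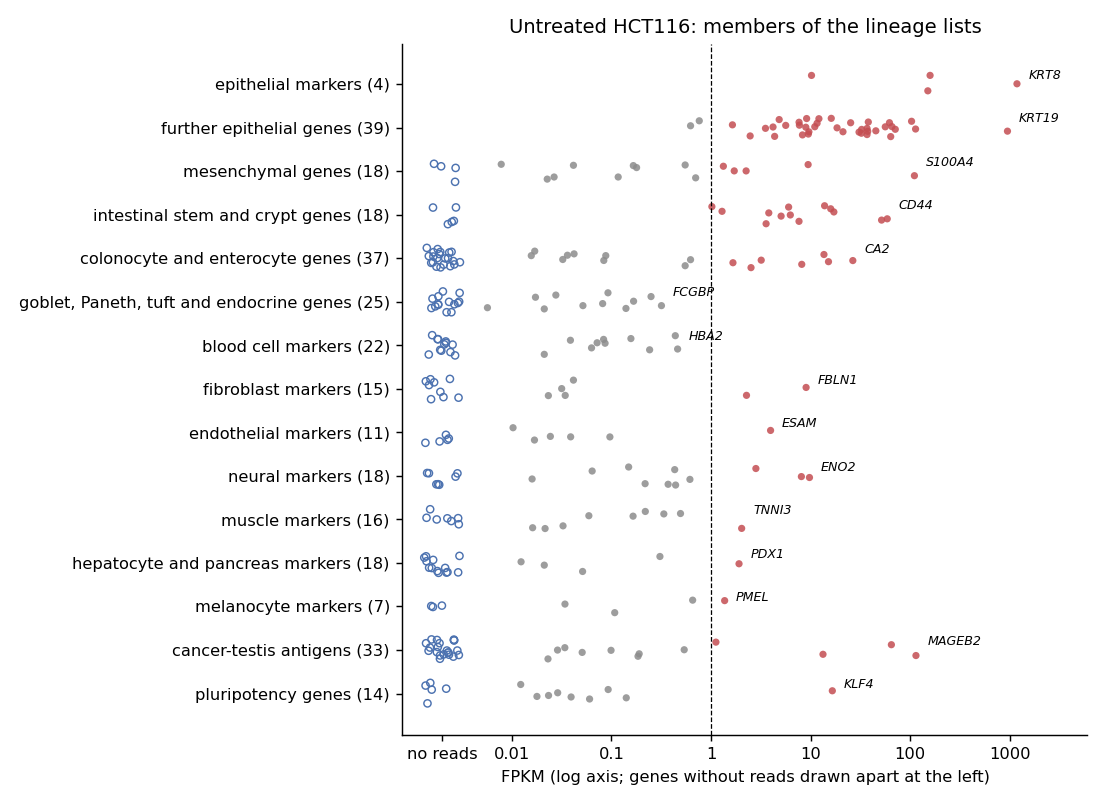
FPKM (log axis) of each member of the 15 lineage lists in the untreated HCT116 library, with the number of members in brackets, red points at 1 FPKM or more, grey points below it, and open circles at the left for genes without reads. Epithelial genes lie to the right of the dashed line at 1 FPKM (37 of 39 further epithelial genes). No reads were found for 21 of 37 colonocyte and enterocyte genes and 12 of 22 blood cell genes.

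Genes of the absorptive cells of colon and small intestine, listed together, were mostly without reads. Of 37 colonocyte and enterocyte genes 7 were expressed, 9 had reads under 1 FPKM and 21 had none, where 25.4% of protein-coding entries had none. Genes without reads include CDX1, a caudal homeobox factor gene, VIL1, the gene of the microvillus protein villin, FABP1, a fatty acid carrier gene, CDH17, the gut cadherin gene, and CEACAM5, the gene of carcinoembryonic antigen. Expressed members include the carbonic anhydrase gene CA2 at 26.5 FPKM, the microvillus bundling gene PLS1 at 15.1, KLF5 at 13.6, CDX2, the intestinal master regulator, at 8.14 (7.53 to 8.78), HNF4A at 2.52 and DPP4 at 1.66 FPKM. Genes of secretory cells were lower still: 0 of 25 goblet, Paneth, tuft and endocrine genes reached 1 FPKM and 14 had no reads. The highest was FCGBP at 0.318 FPKM, the goblet mucin gene MUC2 had 1 read, and TFF3, SPDEF and AGR2 had none.

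Markers of other tissues were mostly under 1 FPKM. For comparison, 54.5% of protein-coding entries were expressed and 25.4% had no reads. No blood cell marker of 22 reached 1 FPKM, and PTPRC, CD3E, CD14 and HBB were without reads, while HBA2 had 6 reads. Among 15 fibroblast markers FBLN1, a matrix protein gene, was at 9.0 FPKM and COL1A1 at 2.27, whereas its partner chain COL1A2 and COL3A1, DCN and LUM had no reads. Of 11 endothelial markers ESAM, also an adhesion gene of other cells, was at 3.96 FPKM and CDH5 had no reads. Among 18 neural markers ENO2 was at 9.73, the synaptic vesicle gene SYT1 at 8.07 and MBP at 2.82 FPKM, and 7 members, such as DCX and STMN2, had no reads. The muscle list had TNNI3 at 2.03 FPKM from 41 reads, the hepatocyte and pancreas list had PDX1 at 1.91 and no reads of ALB or INS, and the melanocyte list had PMEL at 1.37 FPKM. PECAM1 was not analysed here.

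Few of the cancer-testis genes, normally expressed mainly in germ cells, were expressed. Of 33 members 4 were expressed and 21 had no reads, where 54.5% of protein-coding entries were expressed and 25.4% had no reads. MAGEB2 was at 114 FPKM (110 to 118) from 3729 reads, MAGEA3 at 64.6 FPKM, PRAME at 13.3 and MAGEA2 at 1.12, and MAGEA2B, outside the list and named after its values were seen, at 3.53. MAGEA4, MAGEA10, MAGEC2, CTAG1B and SSX2 had no reads. MAGEA genes are near-identical, so reads can be split between MAGEA2, MAGEA2B, MAGEA3 and MAGEA6, the last of which was at 0.538 FPKM. Of 14 pluripotency genes, KLF4, which is also a gut epithelial factor, was at 16.5 FPKM, and POU5F1, SOX2 and NANOG had 4, 2 and 1 reads.

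CTNNB1, the beta-catenin gene, was at 110 FPKM (107 to 112). The few genes of the study's question that are named here were each expressed, as were 54.5% of protein-coding entries. The kinase genes CDK4 and CDK6 were at 63.8 and 9.93 FPKM, TNFRSF10B, a death receptor gene, at 15.6 and TP73 at 11 FPKM.

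Levels within families were compared in 70 lists. Some hold paralogues, and others also join partners of a pathway or complex, such as the telomerase components or the RAF, MEK and ERK genes. The counts over all lists therefore do not measure paralogue choice alone. In 40 of the 70 lists a lead member held over 50% of the summed FPKM. With 2 members, as for the pyruvate kinases and eEF1A isoforms, such a lead is given beforehand unless both are equal. In 7 lists the lead held at least 90%: the keratin KRT8, the aldolase ALDOA, the enolase ENO1, the pyruvate kinase PKM, the creatine kinase CKB, the homeobox gene HOXD8 and the galectin LGALS1. Ranked by reads, without length, 15 families had another lead, so part of these orders rests on the gene lengths used by the authors.

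In glycolysis, genes of the ubiquitous enzyme forms led over those of muscle, liver and brain. ENO1 was at 2048 FPKM, against 9.73 for the neuronal ENO2 and 1.78 for the muscle form ENO3. ALDOA was at 670 FPKM and ALDOC of brain at 8.25. PKM was at 811 FPKM and PKLR, of liver and red cells, had no reads. PGAM1 stood at 298 FPKM and the muscle form PGAM2 had no reads. The glucose transporter gene SLC2A1 was at 90.2 FPKM, while SLC2A2 of liver had no reads and SLC2A3 was at 0.625. HK1 and HK2, the first enzymes of the path, lay close together at 27.7 and 23.4 FPKM, a ratio of 1.18 (1.12 to 1.25), with more reads for HK2. The phosphofructokinase family was mixed, with the platelet type PFKP at 214 FPKM, 4.51 times (4.34 to 4.68) the muscle type PFKM at 47.5, which was 1.08 times (1.04 to 1.13) the liver type PFKL at 43.9.

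Around pyruvate and energy transfer several relatives were expressed together. LDHB, the heart-type subunit gene of lactate dehydrogenase, was at 692 FPKM and LDHA at 481, a ratio of 1.44 (1.41 to 1.47), but LDHA had more reads, 23598 against 21631. The lactate exporter gene SLC16A3 was at 166 FPKM, 3.34 times (3.23 to 3.45) SLC16A1 at 49.6, and their chaperone gene BSG was at 297. Of the translocases that exchange ADP and ATP across the inner mitochondrial membrane, SLC25A5 was at 386 FPKM and SLC25A6 at 256, the heart and muscle gene SLC25A4 at 32.2, and the testis gene SLC25A31 had no reads. SLC25A6 had more reads than SLC25A5, 10705 against 9994. Brain-type creatine kinase CKB was at 387 FPKM and the muscle type CKM had 2 reads.

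**Figure D3:**
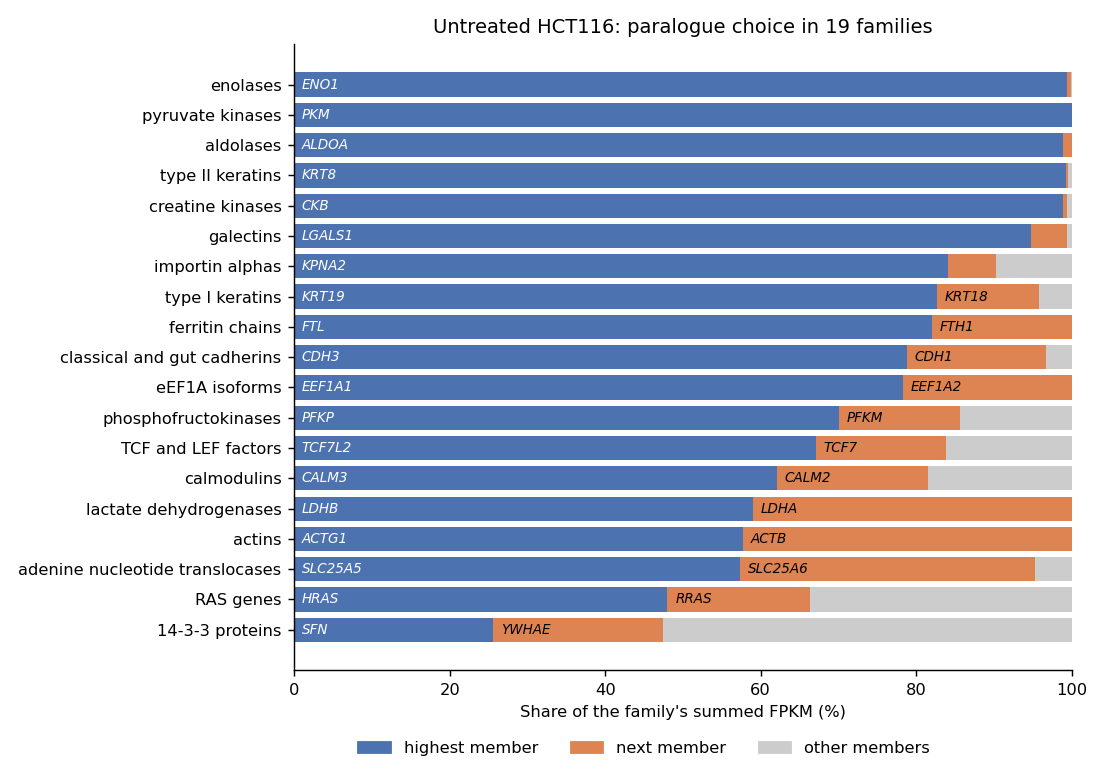
Share of the summed FPKM of a family (percent, linear axis) held by its highest member (blue), the next (orange) and the others (grey), in 19 families of the untreated HCT116 library. The enolases are held by ENO1 at 99.4%, while SFN leads its adaptor family with 25.6%.

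Structural families ranged from a lead member near 100% to members at almost the same level. Among type I keratins KRT19 exceeded KRT18 by 6.28 times (6.11 to 6.45), and KRT10 followed at 37.5 FPKM. Among type II keratins KRT8 held 99.2%, with KRT7 at 4.35 FPKM and KRT5 at 0.253. Of the classical cadherins CDH3, the P-cadherin gene, at 45.1 FPKM exceeded CDH1 by 4.43 times (4.13 to 4.76). Claudins of tight junctions were led by CLDN4 at 37.4 and CLDN7 at 32.5 FPKM, and CLDN1 had 3 reads. ACTG1 was 1.36 times (1.35 to 1.38) ACTB, while the muscle actin genes ACTA1 and ACTC1 had 5 and 0 reads. Ezrin, which links membranes to actin, led its family with EZR at 409 FPKM and MSN at 66.2. Lamins LMNB2 and LMNA were nearly level at 255 and 239 FPKM, a ratio of 1.07 (1.05 to 1.09). Integrin chains were led by ITGB1 at 117, ITGA3 at 49.6 and ITGB4 at 48.5 FPKM, chains of laminin receptors, and the leukocyte chain gene ITGAL had no reads.

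Signalling families often had several members within a few fold. HRAS at 99.1 FPKM was 3.29 times (3.11 to 3.48) NRAS at 30.1, though NRAS had the most reads of the RAS genes, 2721. All 7 RAF, MEK and ERK genes were expressed, from MAP2K2 at 72.7 down to BRAF at 4.68 FPKM. PIK3CB at 13.8 FPKM was 6.04 times (5.41 to 6.75) PIK3CA at 2.28. AKT2 and AKT1 were at 28.2 and 23.8 FPKM, with more reads for AKT1, 4062 against 3036. Of 54 receptor tyrosine kinase genes 27 were expressed, near the 54.5% of protein-coding entries, and they were led by the collagen receptor gene DDR1 at 73.1, EPHA2 at 55.5, EPHB4 at 41.2 and MET, the hepatocyte growth factor receptor gene, at 40.0 FPKM, while EGFR was at 7.64. Downstream of beta-catenin, TCF7L2 was at 37.9 FPKM, 4.03 times (3.75 to 4.33) TCF7, and LEF1 had no reads. TP63, a factor gene of stratified epithelia and relative of TP73, had no reads.

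Transcription factor families of the gut were not led by their gut members in each case. GATA2, best known from blood and endothelium, was at 12.6 FPKM and the gut factor gene GATA6 at 6.31, a ratio of 1.99 (1.78 to 2.23), while GATA4 and GATA5 had no reads. FOXA3 at 5.99 FPKM was the highest of the FOXA and HNF genes, with FOXA2 at 0.285. SOX4 at 110, SOX9 at 51.5 and SOX12 at 42.3 FPKM led the SOX genes, and SOX17 had no reads. Among 48 nuclear receptor genes 24 were expressed, also near the 54.5% of protein-coding entries. NR2F6 at 96.0 and ESRRA at 51.2 FPKM led them, but NR2F2 had the most reads. PPARG was at 24.6 and the vitamin D receptor gene VDR at 6.66 FPKM.

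Housekeeping and stress families gave further choices. EEF1A2, whose protein is typical of neurons and muscle, was at 613 FPKM beside EEF1A1, which was 3.6 times (3.55 to 3.65) as high. FTL was 4.54 times (4.45 to 4.64) FTH1, its partner in the ferritin shell. CALM3 and CALM2, which encode the same calmodulin protein, were at 216 and 67.5 FPKM. SFN, an adaptor gene of epithelia, was the highest of its adaptor family at 403 FPKM, above YWHAE at 344, but YWHAZ had the most reads. GSTP1 led the glutathione transferases at 409 FPKM, and GSTM1 had no reads. Metallothionein reads went to MT2A at 310 and MT1E at 213 FPKM, and 7 of 11 members had none. Of 10 galectins LGALS1 was at 429 FPKM, LGALS3 at 20.6 and the gut form LGALS4 had no reads. Mucins were low, with MUC3A at 1.92 FPKM and MUC1 at 0.19.

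Several copies of widely expressed genes that are known mainly from testis had no reads. They were PGK2, PDHA2, RPL10L, RPL39L and CETN1, whose relatives PGK1, PDHA1, RPL10, RPL39 and CETN2 were at 116, 26.8, 446, 140 and 13.9 FPKM, and also LDHC and SLC25A31. Other such copies had a few reads, with 14 each for PGAM4 and COX6B2, at 0.411 and 0.331 FPKM.

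HOX genes, which keep a record of position along the body axis, were highest in paralogue groups 7, 8 and 9. Groups 1, 2 and 12 had no expressed gene, and each other group had at least 1. Of 39 genes 19 were expressed and 7 had no reads, where 54.5% of protein-coding entries were expressed and 25.4% had no reads. The HOXB cluster held 48.2% of the summed HOX FPKM and HOXA 38.5%, followed by HOXC with 10.6% and HOXD with 2.66%. Paralogue groups 7, 8 and 9 held 17.5%, 18% and 29.4%, whereas groups 1 and 2 held 0.729% and 0.318%. HOXA9 was the highest at 20.2 FPKM, 2.48 times (2.2 to 2.79) HOXA10. HOXB8 at 18.2 and HOXB7 at 17.3 FPKM had a ratio of 1.05 (0.956 to 1.15), an interval that includes equality. HOXB7 had more reads, 1382 against 673. HOXD8 at 3.05 FPKM was expressed in a cluster where 5 of 9 genes had no reads. The posterior gene HOXB13, a marker of hindgut and prostate, was at 3.37 FPKM and HOXA13 at 1.68.

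**Figure D4:**
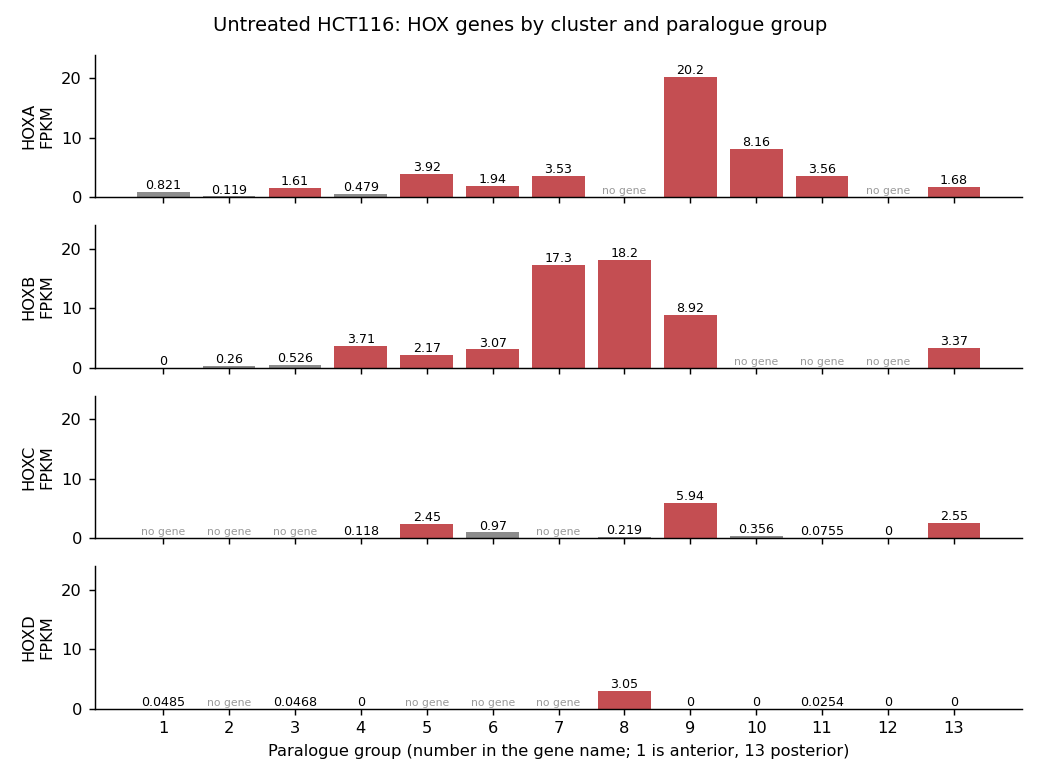
FPKM (linear axis, same scale in each panel) of the 39 HOX genes in the untreated HCT116 library by cluster (panels) and paralogue group (horizontal axis), red at 1 FPKM or more and grey below it, with 0 for genes without reads. The highest bars are HOXA9 at 20.2, HOXB8 at 18.2 and HOXB7 at 17.3 FPKM.

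Large families of specialised tissues had almost no reads. No reads were found for 703 of 728 olfactory receptor entries, 317 of 319 immunoglobulin segments, 197 of 202 T cell receptor segments, 84 of 93 keratin-associated protein genes, or any of 51 defensins, 17 type I interferons and 21 UDP-glucuronosyltransferases, where 58.4% of all entries had none. At the other end 31 of 35 genes for E2 ubiquitin enzymes were expressed, led by UBE2S of the anaphase-promoting complex at 585 FPKM. Between them, 290 of 553 genes named ZNF (52.4%) and 168 of 335 solute carrier genes (50.1%) were expressed, close to the 54.5% of protein-coding entries.

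Single members stood out in families with a lower share of expressed members than the 54.5% of protein-coding entries. The family shares ran from 0.275% of olfactory receptor genes to 31.6% of Wnt ligand genes. OR51B4, an olfactory receptor gene, was at 8.36 FPKM (7.14 to 9.73) from 167 reads, and OR51B2 at 1.7 from 36, the 2 expressed of 728. Both lie beside the beta-globin genes, where the embryonic globin gene HBE1 was at 36.1 FPKM (33.4 to 38.9) from 664 reads, while HBG2 had 18 reads and HBB none. Among potassium channel genes, KCNN4, an intermediate conductance channel gene of epithelia, was at 25.3 FPKM and KCNH3 at 22.9. Of 80 potassium channel genes 38 had no reads (47.5%), against 25.4% of protein-coding entries. GABRD, a GABA-A receptor subunit gene, was at 10.6 FPKM. GRIN1, a glutamate receptor subunit gene, was at 4.87, the 1 expressed of the 10 such genes counted here, which may not be the whole family. Of 19 Wnt ligand genes WNT16 was at 33.3 FPKM, WNT10B at 9.98 and WNT7B at 5.8. Of 22 fibroblast growth factor genes 3 were expressed, led by FGF19, an intestinal hormone gene, at 15.6 FPKM. Collagens were led by COL6A2 at 39.7 and COL6A1 at 32.9 FPKM, which encode chains of the same microfibril, and cytochromes P450 by CYP2S1 and CYP24A1, a vitamin D degrading enzyme gene, both at 13.6 FPKM.

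A value of 0 in this table does not show that a gene is silent. Genes in wide use among cell types were listed with few reads: EEF1G, an elongation factor subunit gene, with 0, RPL36A with 25, RPL17 with 40 and RPS10 with 50, and likewise GTF2H4, ARL6IP4, GMPPB and IPO4 with 0 and the PI3K subunit gene PIK3R2 with 1. These genes were picked after their values were seen. Each shares exons with a neighbour on the same strand in GENCODE release 29, such as RPL36A with the read-through gene RPL36A-HNRNPH2. Over protein-coding genes in all, such overlap was not more frequent among those without reads, 593 of 4529 (13.1%), than over the whole, 2708 of 18203 (14.9%). The part of overlap in the low values was not tested, and the annotation used for counting is not stated.

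CpG content of the promoter followed the level class. The CpG ratio sets the number of CG pairs against the number expected from the C and G content, and promoters at 0.6 or more are commonly called CpG-rich. Such promoters made up 26.3% of 3266 for genes without reads, 52.3% of 2151 under 1 FPKM, 87.4% of 2719 at 1 to 10, 94.5% of 2656 at 10 to 100 and 94.6% of 349 at 100 or more, and 64.6% over all. The median ratio was 0.29 without reads and 0.92 in the highest class. The same order was seen within the lists: of family members 82.1% of the expressed, 38.1% of those under 1 FPKM and 32.9% of those without reads had a CpG-rich promoter, and of lineage list members 74.1%, 34.2% and 14.1%.

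**Figure D5:**
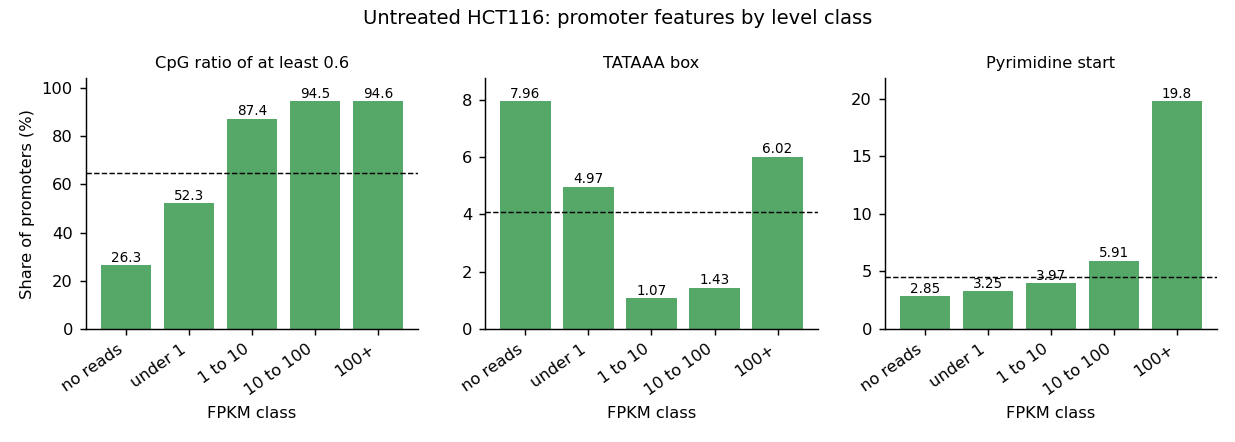
Share of promoters (percent, linear axes that differ between panels) with a CpG ratio of at least 0.6, a TATAAA box or a pyrimidine start, by FPKM class of the gene, for 11141 genes with 1 annotated start, with the share over all of them as a dashed line. CpG-rich promoters reach 94.6% and pyrimidine starts 19.8% in the highest class, and the TATAAA box is found at 7.96% of promoters without reads and 6.02% in the highest class.

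Level and CpG content did not always go together, and the next lines show the 4 combinations in 250 bases up to the start of each gene, with CG pairs in capitals. SLC25A5 is CpG-rich with 386 FPKM, and SLC25A31, its testis relative, is CpG-rich without reads. SFN is CpG-poor with 403 FPKM, and CEACAM5 is CpG-poor without reads.
SLC25A5 (chrX:119468194-119468443, plus strand): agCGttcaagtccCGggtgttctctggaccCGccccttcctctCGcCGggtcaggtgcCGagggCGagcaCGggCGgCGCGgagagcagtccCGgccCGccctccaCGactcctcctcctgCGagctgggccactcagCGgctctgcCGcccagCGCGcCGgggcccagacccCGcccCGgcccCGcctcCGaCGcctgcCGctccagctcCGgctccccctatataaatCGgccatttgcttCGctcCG
SLC25A31 (chr4:127730150-127730399, plus strand): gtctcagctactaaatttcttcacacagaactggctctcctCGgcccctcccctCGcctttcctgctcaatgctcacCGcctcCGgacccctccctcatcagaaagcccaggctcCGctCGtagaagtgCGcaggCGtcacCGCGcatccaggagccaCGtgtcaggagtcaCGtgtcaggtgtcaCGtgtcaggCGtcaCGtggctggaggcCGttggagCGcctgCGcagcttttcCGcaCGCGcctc
SFN (chr1:26862899-26863148, plus strand): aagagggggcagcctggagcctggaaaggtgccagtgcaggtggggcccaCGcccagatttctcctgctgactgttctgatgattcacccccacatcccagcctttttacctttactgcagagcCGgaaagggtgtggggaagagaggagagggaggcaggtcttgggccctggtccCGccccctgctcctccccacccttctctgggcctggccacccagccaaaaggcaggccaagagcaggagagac
CEACAM5 (chr19:41708376-41708625, plus strand): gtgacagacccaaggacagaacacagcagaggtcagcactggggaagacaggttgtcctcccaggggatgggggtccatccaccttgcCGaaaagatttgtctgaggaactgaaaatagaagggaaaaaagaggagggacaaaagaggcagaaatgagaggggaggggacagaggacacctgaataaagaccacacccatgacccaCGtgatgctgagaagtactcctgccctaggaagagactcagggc

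These windows hold 30, 21, 3 and 2 CG pairs in the order of the lines. In the highest class 19 of the 349 promoters were CpG-poor. They were of mixed kinds. Keratin, adaptor and interferon-induced genes were among them, such as KRT8 with a ratio of 0.11 at its annotated start, SFN with 0.23 and IFITM3 with 0.36 at 263 FPKM. So were genes of glycolysis and other basic functions: LDHB with 0.55, PGAM1 with 0.24, GPI with 0.54 at 161 FPKM, the proteasome gene PSMD8 with 0.54 at 191 FPKM and the respiratory chain gene NDUFB7 with 0.57 at 121 FPKM. The lowest ratio was that of ANXA1, 0.00 at 163 FPKM, and TNNT1, the gene of slow skeletal muscle troponin T, had 0.23 at 120 FPKM.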

How the data were processed

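RNA was measured by Illumina sequencing of total RNA, per the labels' protocols, and HTSeq 0.6.1, DESeq and hg19 were used, per the submitters' processing notes. Aligner, annotation and strand setting were not given in the sources used here, so reads of overlapping or antisense neighbours cannot be told apart. The deposited counts are raw whole reads per gene. FPKM values were deposited too and equal the authors' counts divided by gene length and library total. For 20012 of 20012 entries with reads they gave back a length within 0.001 bases of a whole number, so FPKM is no independent measurement.

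CPM was computed on the library total of 20313597 reads. Where a symbol had several entries, the highest was used. The 29 entries that carry a spreadsheet date (0.196% of reads) stayed in the total and are not named. Intervals are exact Poisson for levels and Clopper-Pearson on the share of reads for ratios. Sequenced reads can be PCR copies of a molecule, so intervals and the floor of 3 counts cover counting error only. Gene types came from GENCODE release 29 and promoter windows from RefSeq on GRCh38.p14, matched by symbol. The calculations were made in Python 3.11.15, and of these the intervals for levels and ratios were tested on simulated data. TMM factors from edgeR 4.0.16 and size factors from DESeq2 1.42.0 were fitted over all 3 libraries, treated ones included, and served as alternative scalings.

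The 15 lineage and 70 family lists were chosen with earlier results of these data known. Named are the 20 highest genes, fixed genes, leaders and members without reads of each list, and lead and next members of families. The promoter motifs, the restriction to genes with 1 start, the ratios, the printed sequences and any gene outside the lists were chosen after the values were seen. Some members of the lists are not reported here.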

Additional observations from a re-analysis of the deposited data

How the results depend on the processing

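The number of expressed entries was 11448 and lay between 7715 (at least 5 FPKM) and 12790 (at least 0.5 FPKM) over 6 alternatives, with 11387 under TMM scaling and 11384 under DESeq2 size factors, which were fitted with the treated libraries and lower levels by 3.28% and 3.42%. The 100 highest entries held 21.7% of reads, 32.3% of summed FPKM, and 19.5% of reads without the 15 mitochondrial and ribosomal RNA entries. Families led by a member at 90% or more numbered 7, against 16 at 80% or more and 6 by CPM. The CpG-rich share in the highest class was 94.6%, 96.3% with classes by CPM and, added after seeing the data, 91.9% with genes of several starts included. At a CPM of at least 1 in place of 1 FPKM, 5 of 15 lineage lists moved by over 1.5 times, among them neural markers with 7 expressed members in place of 3. No paired analysis was possible because 1 library is described and no test was made. Genes without reads have no length in the files, so their limit can be given as CPM and not as FPKM.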

Other observations

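A few genes of secreted factors and surface ligands had high levels. They were picked for these values, so they do not describe such genes as a group. NPW, the gene of a neuropeptide, was at 346 FPKM (338 to 354) from 7136 reads. KITLG, the gene of the ligand of the KIT receptor, was at 178 FPKM (176 to 181), GDF15, a stress-responsive growth factor gene, at 132 (128 to 135), DKK1, a secreted Wnt inhibitor gene, at 77.7 (74.9 to 80.6), and the epidermal growth factor family genes EREG and AREG at 74.2 and 24.2 FPKM.

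Genes usually described in other tissues also reached high levels. TNNT1, of slow skeletal muscle, was at 120 FPKM (115 to 124) from 2829 reads, while the muscle regulators MYOD1 and MYOG had no reads. TRIM72, a membrane repair gene of muscle, was at 42.2 FPKM (40.3 to 44.2). The fetal RNA-binding protein genes IGF2BP2 and IGF2BP3 were at 35.1 and 16.3 FPKM, and HMGA2, another gene of fetal tissue, at 23.0 FPKM. FOXC1, a mesodermal forkhead factor gene, led its family at 70.7 FPKM. Among long non-coding RNAs PVT1 was at 39.4 FPKM, GAS5 at 34.5, UCA1 at 5.32 and NEAT1 at 0.773 FPKM.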
